A study of Mus musculus with 24 samples.

Results

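Bone morphogenetic proteins (BMPs) and the proteins that hold them in check were followed in dermal papilla (DP) cells, the mesenchymal cells at the base of the hair follicle, through the second hair cycle. The 9 genes were taken by symbol from the 25755 genes of the deposited tables. They are the ligands Bmp2, Bmp3, Bmp4, Bmp5, Bmp6 and Bmp7, the secreted antagonists Nog and Grem1, and the decoy receptor Bambi. RNA was sequenced from DP cells of 3 control and 3 mutant mice at each of 4 ages, which gave 24 libraries in 8 groups. The ages were P20 (telogen, the resting phase that ends the first cycle), P24 (early anagen, the growth phase), P28 (mid-anagen) and P60 (telogen of the second cycle). The mutant, designated dM1/2, carries Corin-Cre with both alleles of Hdac1 and of Hdac2 floxed, which deletes both histone deacetylases in most but not all DP cells. Controls carry Corin-Cre too, with at least one floxed Hdac allele, and some control genotypes are homozygous for one of the floxed genes. Which genotype a given control library had is not in the labels, and the parents are of mixed FVB and C57BL/6J background. Mice at P20 were females and mice at P24 and P28 were males, whereas both sexes were used at P60, so that sex cannot be told apart from the stage. Cells carrying a YFP reporter were sorted from dissociated whole skin in a pair of rounds, which leaves a share of other cells.

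BMP ligands are secreted dimers that bind type I and type II receptor kinases, which phosphorylate Smad proteins that enter the nucleus and switch on targets such as the Id genes. Noggin, made from Nog, and Gremlin, made from Grem1, bind the ligands outside the cell and block them, and Bambi resembles a type I receptor without its kinase. In the hair follicle, BMP signals are known to keep the epithelial stem cells at rest in telogen, antagonists from the mesenchyme favor entry into anagen, and DP cells themselves need BMP signals to keep their identity.

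Libraries held 8171944 to 49331751 reads on genes, and the anagen libraries were deeper (35469841 or more) than the telogen libraries (13369732 or fewer). Values below are normalized reads, read counts scaled by DESeq2 size factors, on a scale shared by all 24 libraries. The 11 DP marker genes were all detected in every group, with a summed level of 121775 to 421374 normalized reads in anagen and 15203 to 48631 in telogen. Among the anagen libraries, 6 markers of other dermal fibroblasts summed to 5801 to 87532 normalized reads, and in telogen to 56195 to 198952. Summed markers of basal keratinocytes were at most 547 normalized reads in any library. Since these are bulk samples, fewer cells of a type and less RNA per cell cannot be told apart.

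Hdac1 was at 668 to 675 normalized reads in the P24 controls and at 116 to 209 in the P24 dM1/2 libraries, a log2 fold change of -2.01 (SE 0.22, limma adjusted p = 0.00167). It ranged from 105 to 529 in the P28 controls and from 126 to 190 in the P28 mutants, so that the groups overlapped. The lowest of these values belonged to the library labelled P28 control 3. Mice with both Hdac1 alleles floxed are among the control genotypes of the study. Whether this library came from such a mouse is not in the labels. It also had the fewest fibroblast markers (5801) and the most DP markers (421374) of the anagen libraries. P28 control 2 had the most fibroblast markers in anagen (87532). At P20 Hdac1 was at 375 to 511 in controls and 216 to 370 in mutants, and at P60 at 360 to 506 and 318 to 371. Hdac2 transcripts were at 925 to 1069 in the P24 controls and at 1157 to 1282 in the P24 mutants. Whether these reads fall in the deleted part of the gene was not examined, so that the Hdac2 values do not check the deletion. Results at P28 are therefore also given with either of these controls left out.

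On the GRCm38 assembly, Bmp2 is at chr2:133552159-133562885, Bmp7 at chr2:172868012-172940321 and Grem1 at chr2:113746164-113758646. Bmp3 is at chr5:98854415-98884396, Bmp5 at chr9:75775364-75900310 and Nog at chr11:89300638-89302332. Bmp6 is at chr13:38345107-38500302 and Bmp4 at chr14:46383520-46390669. Bmp2, Bmp3, Bmp5 and Bmp6 are on the plus strand and Bmp4, Bmp7, Nog and Grem1 on the minus strand. Exons of Bmp6 share 224 bases with exons of Txndc5 on the opposite strand, and exons of Bmp4 share 89 bases with Gm15217. The strand setting of the counting is not given in the sources used here. Txndc5 was at 5246 to 6608 normalized reads in the P24 controls and 6163 to 8486 in the P24 mutants. At P28 it was at 5524 to 7253 in controls and 5428 to 6755 in mutants. The part of the shared bases in the Bmp6 values was not tested. Gm15217 averaged 21.3 normalized reads over all libraries.

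Promoters of 4 of the 9 genes were taken from a RefSeq table (GRCm38.p6), from 250 bases before to 50 bases after the start site. These 4 genes behaved differently in anagen: Grem1 and Bmp4 rose in dM1/2, Bmp6 fell and Bmp5 did not pass the test. Capitals mark the GC box GGGCGG and the BMP Smad motif GGCGCC, searched on both strands, and no base belonged to both.
Grem1, chr2:113758599-113758898, minus strand: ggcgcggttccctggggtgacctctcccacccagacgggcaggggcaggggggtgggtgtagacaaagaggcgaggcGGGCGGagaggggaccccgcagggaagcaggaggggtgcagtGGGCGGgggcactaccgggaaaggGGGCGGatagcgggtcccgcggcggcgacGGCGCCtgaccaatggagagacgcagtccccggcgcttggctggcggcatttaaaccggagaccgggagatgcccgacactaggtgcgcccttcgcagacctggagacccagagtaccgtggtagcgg
Bmp4, chr14:46390620-46390919, minus strand: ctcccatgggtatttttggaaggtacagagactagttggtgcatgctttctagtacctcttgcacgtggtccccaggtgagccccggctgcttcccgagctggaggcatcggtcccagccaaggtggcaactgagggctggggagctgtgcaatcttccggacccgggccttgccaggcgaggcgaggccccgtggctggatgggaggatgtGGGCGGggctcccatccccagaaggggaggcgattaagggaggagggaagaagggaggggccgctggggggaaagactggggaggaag
Bmp6, chr13:38345466-38345765, plus strand: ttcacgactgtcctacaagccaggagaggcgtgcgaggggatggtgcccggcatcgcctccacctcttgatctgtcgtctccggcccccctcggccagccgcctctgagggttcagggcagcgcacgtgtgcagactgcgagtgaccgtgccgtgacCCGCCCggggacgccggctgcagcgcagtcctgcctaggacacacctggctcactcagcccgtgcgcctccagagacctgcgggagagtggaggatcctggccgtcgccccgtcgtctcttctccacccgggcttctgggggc
Bmp5, chr9:75775115-75775414, plus strand: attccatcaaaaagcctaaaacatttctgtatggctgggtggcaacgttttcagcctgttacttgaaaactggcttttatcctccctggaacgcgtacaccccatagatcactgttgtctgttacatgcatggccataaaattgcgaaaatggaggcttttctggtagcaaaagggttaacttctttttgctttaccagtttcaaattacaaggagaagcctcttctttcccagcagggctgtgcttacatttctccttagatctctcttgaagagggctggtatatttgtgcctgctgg
The Grem1 window held 3 GC boxes and 1 BMP Smad motif, the Bmp4 and Bmp6 windows 1 GC box each, and the Bmp5 window neither. Of the 32851 promoters of the table, 35.7% held a GC box and 11.9% a BMP Smad motif. A search for CTTTGA, the core of the TCF/LEF motif, found no match in the 4 windows and at least 1 in 16.0% of all promoters. GC content was 70.7% for Grem1, 69.3% for Bmp6, 64.0% for Bmp4 and 43.3% for Bmp5, against a median of 52.7%.

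In control DP cells most of these genes varied with age. The test used asks for any difference among the 4 ages and does not compare telogen with anagen as such. Over the 4 ages, 8 of the 9 genes varied by limma's F test, against 49.0% of all genes tested, and Bmp5 did not pass (adjusted p = 0.253). Bmp6 had the widest range: 138 to 260 normalized reads in the telogen controls, 4832 to 6103 at P24 and 1458 to 7721 at P28 (adjusted p = 2.16e-05). Bmp3, an atypical member that opposes the other ligands, went from 343 to 685 in telogen to 1842 to 3605 at P24 and 4469 to 8210 at P28 (adjusted p = 2.85e-05). Both were therefore anagen transcripts in controls, and the telogen and anagen libraries did not overlap for either. Nog followed the same course, with 72 to 169 in telogen, 279 to 431 at P24 and 633 to 1040 at P28 (adjusted p = 0.000146), as did Bambi, with 552 to 1139 in telogen and 1422 to 4059 in anagen (adjusted p = 0.0022).

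Bmp2, Bmp4, Bmp7 and Grem1 went the other way in controls. Bmp2 was at 1158 to 2621 in telogen, at 343 to 623 at P24 and at 802 to 1476 at P28, with overlap between telogen and P28 (adjusted p = 0.00136). Bmp7, a ligand needed for kidney and eye development, was at 2790 to 5868 in telogen and at 1027 to 1608 in anagen, with no overlap (adjusted p = 0.000508). Bmp4, the ligand with the highest level per exon length, was at 3579 to 6241 in telogen and at 2307 to 4527 in anagen, with overlap (adjusted p = 0.0371). Grem1 was at 733 to 956 at P20, 127 to 257 at P24 and 1952 to 2479 at P60 (adjusted p = 0.00668). At P28 its 3 control values were far apart: 98 in control 1, 940 in control 2 and 62 in the library labelled control 3. The ordering by stage goes with depth, sex and the summed fibroblast markers, whose part in the result was not tested.

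**Figure D1:**
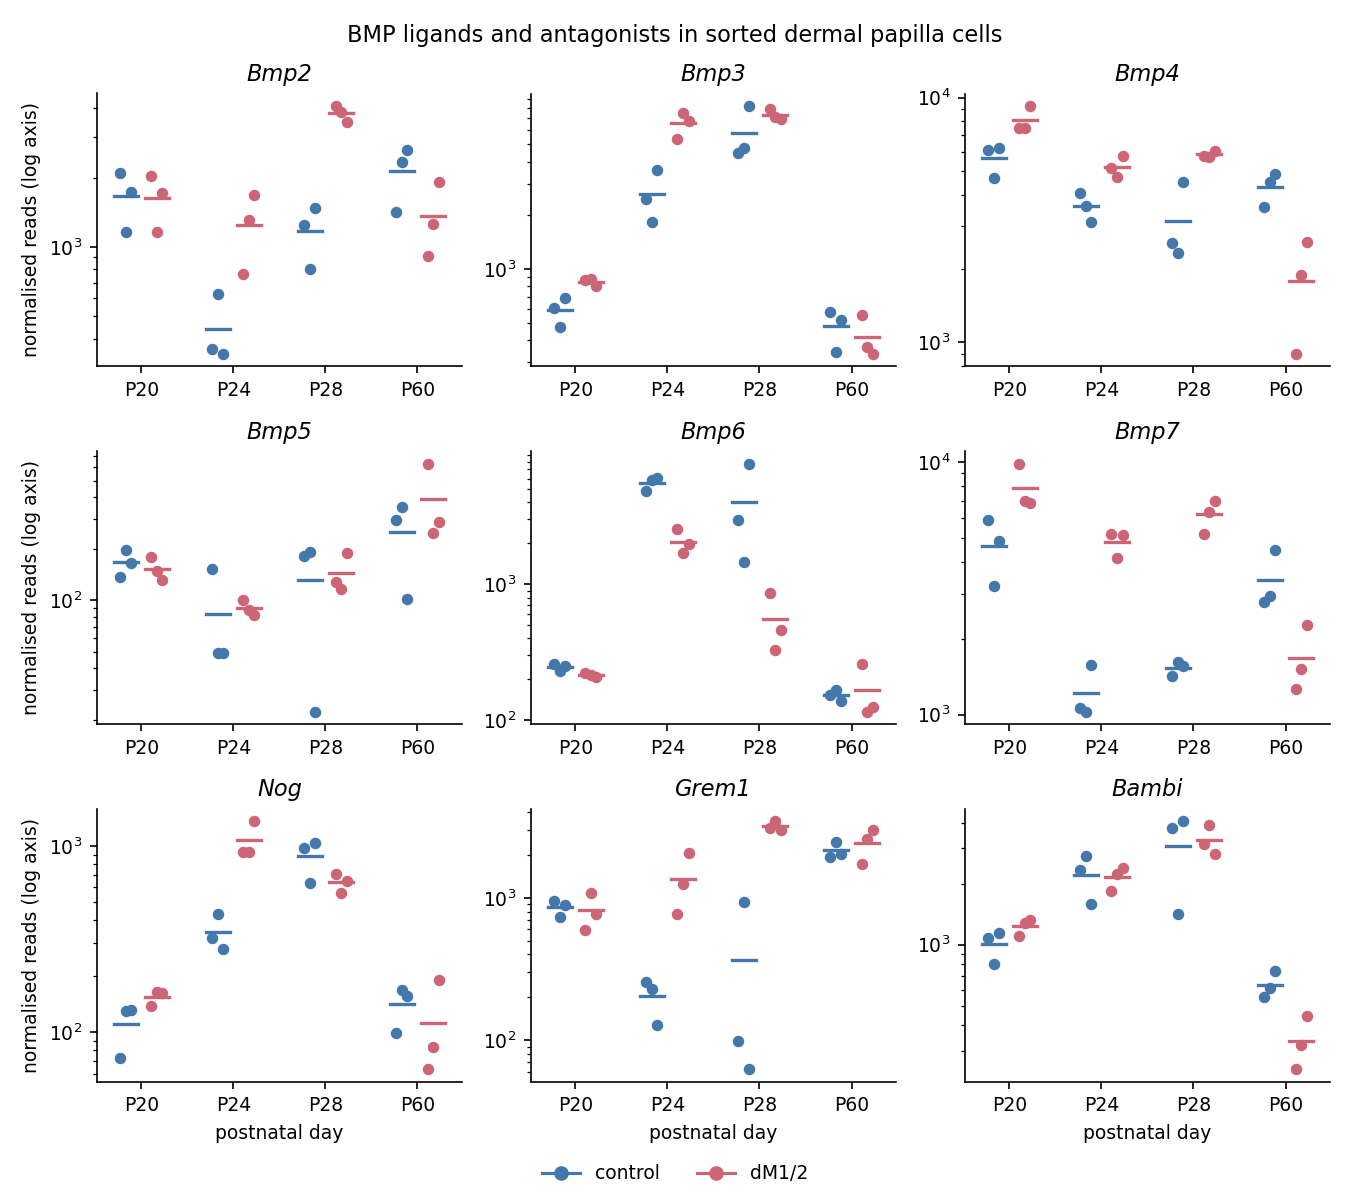
Normalized reads (log axis) of the 9 genes in every library, by postnatal day; points are libraries, 3 per group, and short lines are group means (blue control, red dM1/2). In anagen (P24 and P28) the mutant points of Bmp2, Bmp7 and Grem1 sit above all controls of the same age and those of Bmp6 below, and at P60 those of Bmp4, Bmp7 and Bambi sit below the controls.

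At P24, 7 of the 9 genes passed the threshold of an adjusted p of 0.05 in limma, against 26.6% of all genes tested. Of these, 6 were higher in dM1/2 (14.8% of all genes) and 1 was lower (11.8%). The libraries of the genotypes did not overlap for 7 of the 9 genes (44.8% of all genes), 6 higher (23.8%) and 1 lower (21.0%). At P28, 5 of the 9 passed, against 35.5% of all genes, 4 higher (20.0%) and 1 lower (15.6%), and the same 5 had groups apart (51.3% of all genes; 28.0% higher and 23.3% lower). The median log2 fold change of the 9 was 1.35 at P24 and 0.60 at P28, whereas over all genes it was -0.01 and 0.00. The number that passed was 5 to 8 at P24 and 2 to 6 at P28 when each library was left out in turn, and it was 6 at P28 without control 2 and 6 without the library labelled control 3. Shares over all genes in these fits are not given here.

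Among the ligands that signal through the BMP receptors, Bmp7 showed the steadiest difference. It was at 1065, 1027 and 1570 normalized reads in the P24 controls and at 5189, 4150 and 5133 in the P24 mutants. In the P28 controls it was at 1423, 1608 and 1551, and in the P28 mutants at 5190, 6363 and 7026. Mutant anagen levels thus overlapped the telogen level of the P20 controls (5868, 3222 and 4847). Its log2 fold change was 2.002 at P24 (SE 0.19, adjusted p = 0.0013) and 2.01 at P28 (SE 0.15, adjusted p = 0.00033), and it passed in limma with any library left out. The fold at P28 was 2.05 on the log2 scale without control 2 and 2.02 without the library labelled control 3.

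Bmp2, a ligand best known from bone and from the follicle epithelium, was raised at both anagen ages. It was at 360, 623 and 343 normalized reads in the P24 controls and at 759, 1309 and 1683 in the mutants. At P28 it was at 1247, 802 and 1476 in controls and at 4090, 3834 and 3493 in mutants, the highest values of this gene in the series. The groups did not overlap at either age, and P28 dM1/2 stood above the other 7 groups in every library. The log2 fold change was 1.48 at P24 (SE 0.33, adjusted p = 0.0163) and 1.74 at P28 (SE 0.23, adjusted p = 0.00186). At P24 the adjusted p in limma was 0.0559 without dM1/2 2 and 0.0598 without dM1/2 3.

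Bmp4, needed for hair follicle patterning and a marker of the DP, differed by less. It was at 4075, 3601 and 3111 normalized reads in the P24 controls and at 5139, 4741 and 5749 in the mutants, and at 2535, 2307 and 4527 against 5766, 5741 and 6053 at P28. Every mutant library lay above every control of its age. The log2 fold change was 0.54 at P24 (SE 0.14, adjusted p = 0.031) and 0.97 at P28 (SE 0.26, adjusted p = 0.025). The call rested on single libraries: the adjusted p rose to between 0.0523 and 0.0947 when P24 control 2, control 3 or any of the 3 P24 mutants was left out, and to between 0.0711 and 0.0925 without P28 control 1 or any of the 3 P28 mutants. With the libraries paired by number as a block, it was 0.0923 at P24, and in a single fit over all 24 libraries 0.172.

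Bmp6, known for its part in iron control and in keratinocytes, was the only ligand that fell in dM1/2 in anagen. Its P24 controls were at 4832, 5839 and 6103 normalized reads and its P24 mutants at 2537, 1688 and 1970. The P28 controls spread from 2970 and 1458 to 7721, and the P28 mutants were at 870, 327 and 460. No mutant library reached a control of the same age, and all mutant values in anagen stayed above the telogen values (116 to 260 in both genotypes). The log2 fold change was -1.45 at P24 (SE 0.18, adjusted p = 0.0021) and -2.66 at P28 (SE 0.62, adjusted p = 0.0163). At P28 it was -3.24 without control 2 and -2.03 without the library labelled control 3, both past the threshold, whereas the adjusted p was 0.0679 without dM1/2 2 and 0.0575 without dM1/2 3.

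Bmp3 differed at P24, when it was at 2456, 1842 and 3605 normalized reads in controls and at 5351, 7516 and 6776 in mutants (log2 fold change 1.35, SE 0.25, adjusted p = 0.00829). By P28 the controls were at 4469, 4783 and 8210 and the mutants at 7908, 7157 and 6907, and the groups overlapped (0.39, SE 0.25, adjusted p = 0.271). The overlap came from the library labelled P28 control 3, without which the log2 fold change was 0.66 (adjusted p = 0.0104). Bmp5, the lowest of the 9 per exon length in 6 of the 8 groups, was at 49 to 152 normalized reads in the P24 controls and 82 to 101 in the mutants, and at 22 to 192 and 116 to 189 at P28. It did not pass at either age (adjusted p = 0.625 and 0.603), and its control libraries spanned more than its mutants. Without P24 control 1, the highest of its group, Bmp5 was 0.86 higher on the log2 scale in the P24 mutants (adjusted p = 0.0468).

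**Figure D2:**
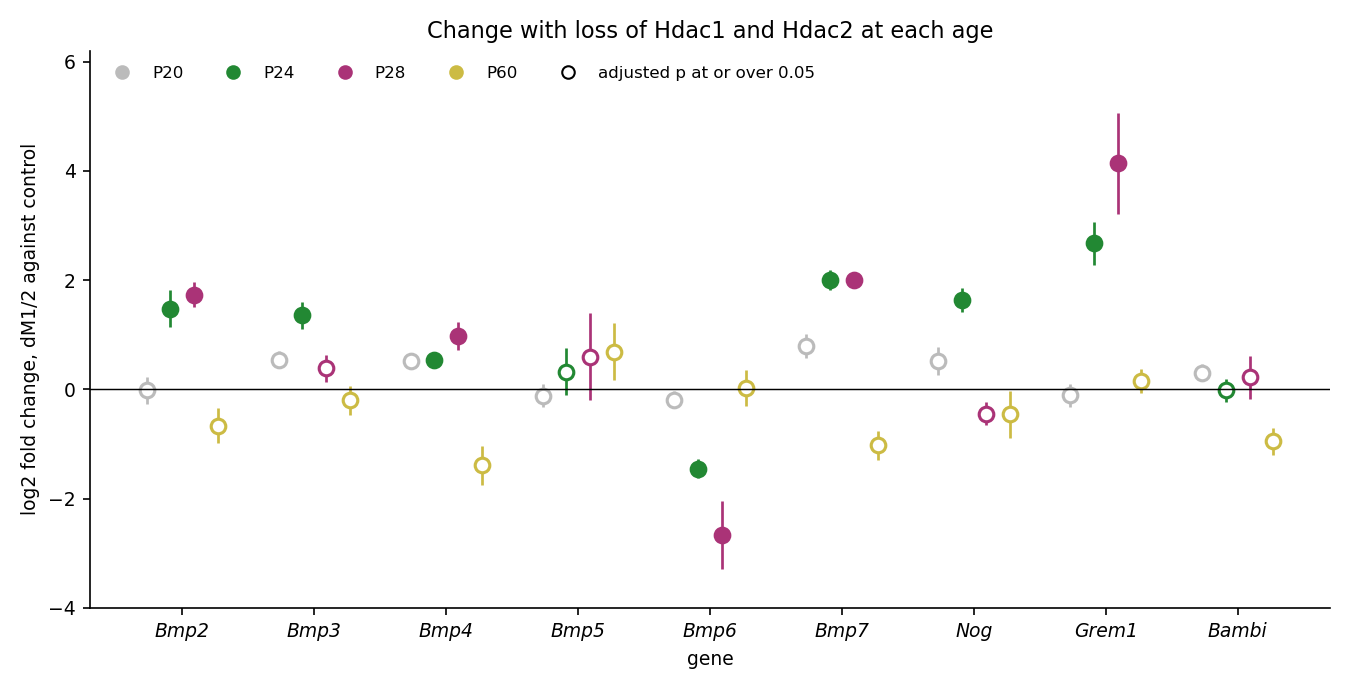
Log2 fold change of dM1/2 against control (limma on log2 of normalized reads + 1) with its standard error for the 9 genes at the 4 ages, 3 libraries against 3; filled points passed an adjusted p of 0.05 and open points did not. Grem1 rose by 2.68 and 4.14 at P24 and P28 and Bmp6 fell at both, while no gene passed at P20 or P60.

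Of the antagonists, Grem1 had the largest difference of the 9 genes. It was at 257, 230 and 127 normalized reads in the P24 controls and at 765, 1248 and 2081 in the mutants. At P28 the controls were at 98, 940 and 62 and the mutants at 3113, 3452 and 2987. The mutants were above every control at both ages, and at P28 they were above every P20 library of either genotype too. The log2 fold change was 2.68 at P24 (SE 0.39, adjusted p = 0.00364) and 4.14 at P28 (SE 0.92, adjusted p = 0.0137). At P28 it was 5.33 without control 2 and 3.38 without the library labelled control 3, both past the threshold. The adjusted p was 0.0516 without P28 control 1, 0.0516 without dM1/2 1 and 0.0555 without dM1/2 2, and it was 0.0503 in edgeR with DESeq2 size factors.

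Nog, like Grem1, was higher in the mutants at P24, but unlike Grem1 it did not pass at P28. It was at 320, 431 and 279 normalized reads in the P24 controls and at 931, 927 and 1357 in the P24 mutants (log2 fold change 1.64, SE 0.21, adjusted p = 0.00259). At P28 the controls were at 978, 633 and 1040 and the mutants at 708, 560 and 647 (-0.44, SE 0.21, adjusted p = 0.15). Mutants at P24 were thus near the level that controls had at P28, and the sign of the difference had turned by P28. Without P28 control 2, the only P28 control within the mutant range, Nog was lower in the mutants (-0.67, adjusted p = 0.0139). Bambi, which dampens signaling at the membrane, was at 1582 to 2723 normalized reads in the P24 controls and 1842 to 2381 in the mutants, and at 1422 to 4059 and 2806 to 3892 at P28. It did not pass at either age (log2 fold change -0.02 with SE 0.21 and 0.22 with SE 0.40).

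Markers of other cells moved with some of these results. Among the P28 controls, Grem1 was highest and Bmp6 lowest in control 2, the library with 87532 summed fibroblast marker reads, and the reverse held in the library labelled control 3, with 5801. The P28 mutants had 15502 to 25938, within the range of the controls, with 2987 to 3452 normalized reads of Grem1 against 940 in control 2. At P24 the controls had 10958 to 41934 and the mutants 10111 to 17816. The DP markers summed to 289522 to 351925 in the P24 controls and to 149810 to 185960 in the mutants, and at P28 to 143920 to 421374 and 121775 to 134428. At P28 adipocyte markers summed to 145 to 516 in controls and 31 to 60 in mutants, and hair matrix and shaft markers to 43 to 76 and 103 to 119. Their part in the result was not tested.

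**Figure D3:**
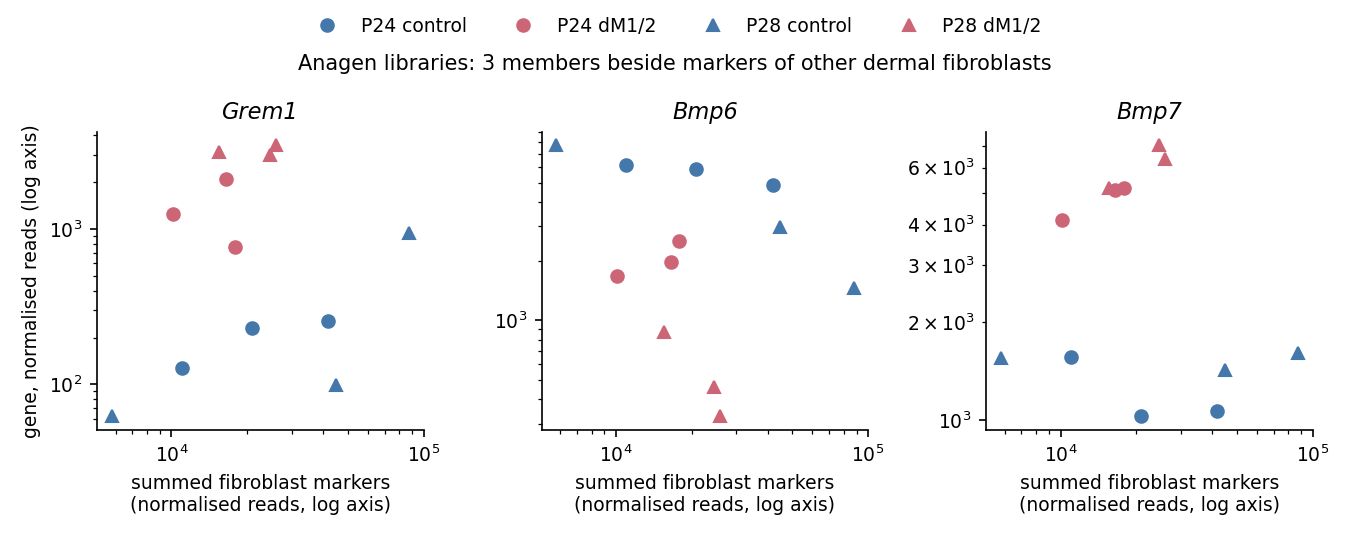
Normalized reads of Grem1, Bmp6 and Bmp7 in the 12 anagen libraries against the summed normalized reads of 6 markers of other dermal fibroblasts, both on log axes; circles are P24 and triangles P28, blue control and red dM1/2. In the P28 controls Grem1 is highest and Bmp6 lowest in the library with most fibroblast markers (87532), while the mutants, at 10111 to 25938 marker reads, have more Bmp7 than every control of the same age.

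Per exon length, the make-up of the ligand pool changed with genotype in anagen. The share of Bmp6 in the reads per exon kilobase of the 6 ligands was 32.7% to 39.8% in the P24 controls and 8.69% to 12.5% in the P24 mutants, and 13.7% to 33.5% against 1.33% to 3.52% at P28. The share of Bmp7 was 6.74% to 9.93% in the P24 controls and 20.7% to 24.9% in the mutants, and 6.53% to 14.7% against 20.4% to 26.8% at P28. The genotypes were apart at both ages for both ligands. Bmp4 stayed the largest share in the group means: 41.8% ± 6.36 (SD, n = 3) in the P24 controls and 43.6% ± 1.13 in the mutants, and 35.5% ± 1.94 and 40.8% ± 0.43 at P28. In telogen, Bmp4 and Bmp7 together made up most of the pool in both genotypes, and Bmp6 was at 0.82% to 5.21% in all telogen libraries.

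**Figure D4:**
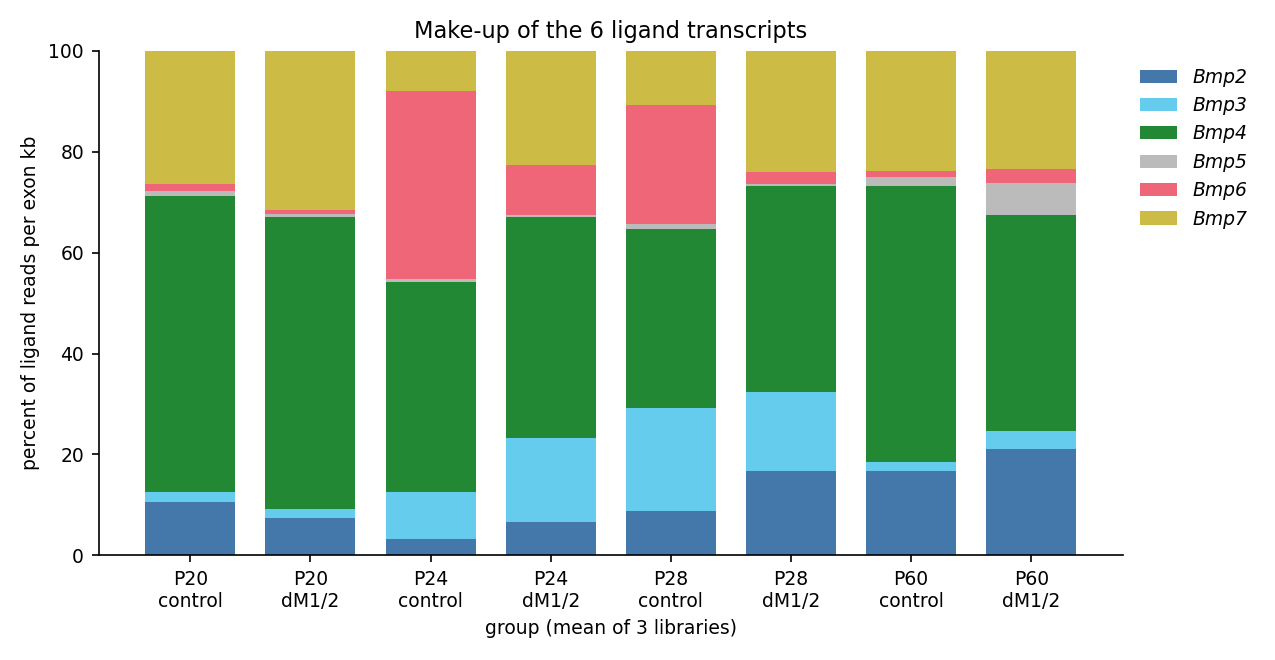
Mean percent of each of the 6 ligands in their summed reads per exon kilobase, in the 8 groups (3 libraries each). Bmp6 (red) makes up 32.7% to 39.8% in the P24 control libraries and 8.69% to 12.5% in the P24 mutants, and Bmp7 (yellow) a mean of 7.89% and 22.6%.

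Change from early to mid-anagen was compared within each genotype. In controls none of the 9 genes passed the threshold in limma (1.46% of all genes did, 0.723% higher and 0.738% lower). Nog gave a log2 fold change of 1.35 (adjusted p = 0.0595), Bmp2 of 1.42 (adjusted p = 0.0818) and Bmp3 of 1.14 (adjusted p = 0.136). These 3 passed in DESeq2 and in a single limma fit over all 24 libraries. In dM1/2, 2 of the 9 passed (2.67% of all genes, 1.69% higher and 0.983% lower): Bmp2 rose by 1.68 (SE 0.25, adjusted p = 0.0162) and Bmp6 fell by 2.002 (SE 0.32, adjusted p = 0.019) on the log2 scale. Both were lost when P28 dM1/2 2 or dM1/2 3 was left out (adjusted p 0.0501 to 0.0829), and Bmp6 also without P24 dM1/2 1 (0.0663).

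A test of the difference between these changes found 1 of the 9 genes (0.707% of all genes, 0.453% higher and 0.255% lower), Nog, whose change from P24 to P28 was 2.08 lower on the log2 scale in dM1/2 than in controls (SE 0.32, adjusted p = 0.0298). Nog went from 279 to 431 normalized reads to 633 to 1040 in controls and from 927 to 1357 to 560 to 708 in dM1/2, so that the libraries of the 2 ages did not overlap in either genotype. The estimate stayed between -2.30 and -1.90 with any 1 of the 12 libraries left out, but the adjusted p was over the threshold in 8 of these 12 fits (0.052 to 0.106) and was 0.088 with a replicate block. Those 8 fits left out P24 control 1 or 3, any P24 mutant or any P28 mutant. For Grem1 the difference of changes was 1.46 (SE 1.12, adjusted p = 0.694), and 2.65 (adjusted p = 0.0471) without P28 control 2.

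In telogen the same comparison was made at P20 and P60. At P20 none passed in limma (0.433% of all genes did, 0.354% higher and 0.0795% lower). Nearest to the threshold were Bmp3 (log2 fold change 0.55, SE 0.15, adjusted p = 0.107), Bmp7 (0.79, SE 0.22, adjusted p = 0.109) and Bmp4 (0.51, SE 0.15, adjusted p = 0.114), with 3 of the 9 at an unadjusted p under 0.05, as were 19.8% of all genes. Bmp7 was at 5868, 3222 and 4847 normalized reads in the P20 controls and 9844, 6989 and 6865 in the mutants. Bmp4 was at 6104, 4675 and 6241 against 7497, 7476 and 9242, and Bmp3 at 608, 471 and 685 against 866, 874 and 806. All mutant values of these 3 genes were above all controls, and 5 of the 9 genes had groups apart at P20 (25.4% of all genes), Bmp3, Bmp4, Bmp7 and Nog higher (12.1%) and Bmp6 lower (13.3%). At P20 the DP markers summed to 25909 to 28546 in controls and 30871 to 48631 in mutants, and the fibroblast markers to 76721 to 124538 and 56195 to 68545, so that neither overlapped between genotypes. Their part in the result was not tested. Bmp7 and Bmp4 passed in DESeq2 (adjusted p = 0.0124 and 0.0299) and in limma without P20 control 1 (0.0272 and 0.0498), and Bmp7 with a replicate block (0.0315). More genes passed in these settings over all genes too. They were 4.82% in DESeq2, 1530 of 13831 without P20 control 1 and 3.17% with a replicate block, against 0.433% in the main fit. Without any other P20 library, 11 genes or fewer passed.

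At P60 no gene of the 14042 tested passed in limma, whereas 525 had a raw p under 0.05 and 26 passed in DESeq2, and none of the 9 passed in either. Bmp4 was at 3579, 4502 and 4885 normalized reads in the P60 controls and at 896, 1883 and 2568 in the mutants (log2 fold change -1.39, SE 0.35). Bmp7 was at 2790, 2936 and 4480 against 1267, 1519 and 2257 (-1.03, SE 0.26), and Bambi at 552, 610 and 742 against 242, 319 and 447 (-0.95, SE 0.25). In these 3 genes every mutant library lay below every control, as was so for 4.08% of all genes (8.87% were apart in either direction, 4.79% higher), but each had an adjusted p of 0.986 in limma. The other 6 overlapped between genotypes: Bmp2 at 1415 to 2621 in controls and 911 to 1904 in mutants, Bmp6 at 138 to 167 and 116 to 258, Nog at 99 to 169 and 63 to 191, and Grem1 at 1952 to 2479 and 1729 to 3010.

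The sign for Bmp4 and Bmp7 was thus opposite at the ends of the cycle, higher in mutants at P20 and lower at P60. A test of the P60 effect minus the P20 effect, added after the values were seen, gave -1.91 for Bmp4 (SE 0.42), -1.81 for Bmp7 (SE 0.38) and -1.25 for Bambi (SE 0.30), with an adjusted p of 0.215 in limma for each and no gene past the threshold among 14037. These 3 genes passed in DESeq2, and Bmp4 and Bmp7 did with a replicate block (adjusted p = 0.0221 and 0.00679). At P60, fibroblast markers summed to 103132 to 120012 in controls and 99860 to 198952 in mutants, and DP markers to 20415 to 25426 and 15203 to 26168. Dermal sheath and smooth muscle markers summed to 11147 to 12103 in the P60 controls and to 5107 to 11000 in the mutants, all lower, and at P20 to 10115 to 12864 and 6988 to 12964. Their part in the result was not tested.

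The difference between the mean effect in anagen and the mean effect in telogen was tested over all 24 libraries. It passed for 6 of the 9 genes, against 30.2% of all genes (16.1% higher and 14.1% lower): Grem1 (3.39 on the log2 scale, SE 0.62, adjusted p = 0.000466), Bmp7 (2.12, SE 0.24, adjusted p = 9.83e-06), Bmp2 (1.95, SE 0.34, adjusted p = 0.000323), Bmp4 (1.20, SE 0.28, adjusted p = 0.0032), Bmp3 (0.70, SE 0.26, adjusted p = 0.0475) and Bmp6 (-1.98, SE 0.42, adjusted p = 0.00151). All but Bmp3 passed with any library left out. Bmp3 missed the threshold in 18 of 24 such fits (adjusted p 0.0576 to 0.0949), with a replicate block (0.0507), with no filter (0.0649) and in edgeR with TMM (0.0552) or DESeq2 size factors (0.0654). Nog, Bambi and Bmp5 did not pass (adjusted p = 0.209, 0.318 and 0.867). Nog did without P60 dM1/2 3 (0.80, adjusted p = 0.0305). For Bmp4 and Bmp7 the telogen mean joins effects of opposite sign, none of them past the limma threshold. They were 0.51 and 0.79 at P20 and -1.39 and -1.03 at P60. The P20 effect of Bmp4 was near its P24 effect (0.54).

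Of 59 other genes of the pathway, 51 had enough reads at P24 and 49 at P28. At P24, 6 rose and 11 fell, and at P28, 8 rose and 10 fell, against 26.6% and 35.5% of all genes that passed in either direction, with a median log2 fold change of -0.11 and -0.24. A count of 17 of 51 and of 18 of 49 is near these shares. Ligands beyond the 6 were mostly too low to test: Gdf10, a BMP relative also called Bmp3b, rose at P24 from 2370 to 3551 normalized reads in controls to 8538 to 12475 in mutants (1.64, adjusted p = 0.0029) and at P28 (0.59, adjusted p = 0.0464). Gdf11, an activin-like ligand, rose by 1.08 at P24 and 1.06 at P28 and was the only one of the 59 past the threshold at P20 (1.22, adjusted p = 0.0194). At P28 both were lost without control 1 or any of the 3 mutants, and Gdf10 also without control 2, with a replicate block, in a single fit over all 24 libraries, with no filter and in both edgeR fits.

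Secreted antagonists and modulators did not move one way. Of 18 tested, 2 rose and 5 fell at each of the anagen ages. Over all genes, 14.8% rose and 11.8% fell at P24, and 20.0% rose and 15.6% fell at P28. Sostdc1, also called Wise, which binds BMPs and Wnt coreceptors, fell from 12148 to 24887 normalized reads in the P24 controls to 1699 to 3079 in the mutants (-3.05, SE 0.31, adjusted p = 0.00143) and from 14252 to 31311 to 2231 to 2865 at P28 (-3.22, adjusted p = 0.000718). Chrd, or Chordin, rose from 318 to 349 to 727 to 854 at P24 (1.23, adjusted p = 0.00139) and by 0.79 at P28 (adjusted p = 0.00411). Chrdl2, a Chordin relative, was at 1.51 to 11.5 normalized reads in the P24 controls and 57.1 to 86.9 in the mutants (3.80, adjusted p = 0.00448). At P28 the controls held at most 1 read each and the mutants 68.6 to 92.1 normalized reads (adjusted p = 0.000317), at least 52.7-fold higher than 3 reads per control library.

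Follistatin, Fst, an activin and BMP binder, fell at P24 (-1.28, adjusted p = 0.00482) and not at P28 (0.22, adjusted p = 0.643). Fstl1 fell at both ages (-0.95 and -1.62), although its P24 call was lost with any library but control 3 left out (adjusted p 0.0834 to 0.106), with a replicate block and with no filter. Dand5 fell at both ages too (-1.44 and -1.45), and Vwc2 fell at P24 (-2.47, adjusted p = 0.00532). Fstl3 (-1.26) and Twsg1 (-0.86), which helps Chordin bind BMPs, fell at P28.

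**Figure D5:**
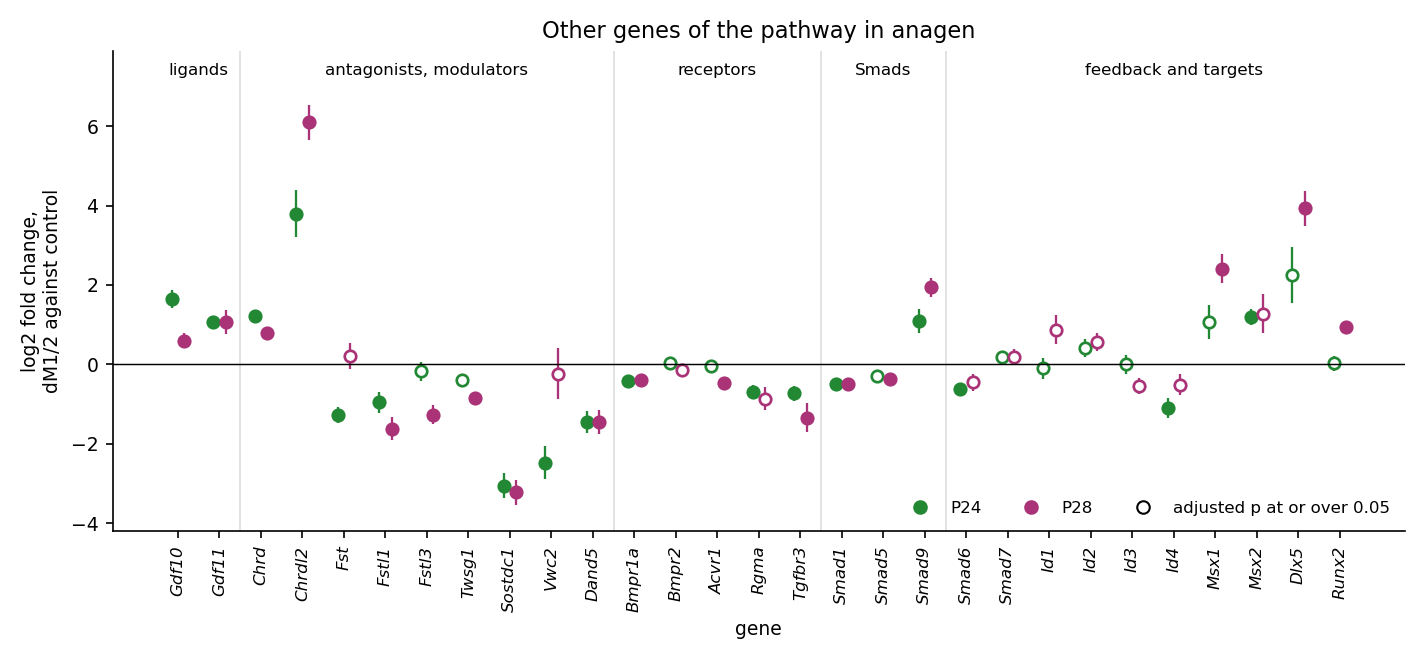
Log2 fold change of dM1/2 against control with its standard error at P24 (green) and P28 (purple) for other genes of the BMP pathway, grouped by role, 3 libraries against 3; filled points passed an adjusted p of 0.05 in limma. Sostdc1 fell by over 3 at both ages, Chrdl2 and Dlx5 rose most, and Bmpr1a, Smad1 and Smad5 lie just below 0. The fitted value of Chrdl2 at P28 depends on the added 1.

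Of the receptors and coreceptors, 3 of 11 fell at P24 (11.8% of all genes) and 3 of 10 at P28 (15.6% of all genes). None rose at either age (14.8% and 20.0% of all genes). Bmpr1a, the main type I receptor, was at 3046 to 3771 normalized reads in the P24 controls and 2398 to 2634 in the mutants (-0.42, SE 0.12, adjusted p = 0.0393), and fell by 0.38 on the log2 scale at P28 (SE 0.11, adjusted p = 0.035). The type II receptor Bmpr2 was at 5105 to 6089 and 4695 to 6455 at P24 and did not pass (adjusted p = 0.924; at P28 0.467). Bmpr1b was at 15.6 to 44.1 in the P24 controls and 9.13 to 16.7 in the mutants (-1.02, adjusted p = 0.15) and was too low to test at P28. Of the others, Tgfbr3, a coreceptor, fell at both ages (-0.73 and -1.34), Rgma, a coreceptor, at P24 (-0.69), and Acvr1, a type I receptor, at P28 (-0.47). The P24 call of Bmpr1a was lost with any library left out, and its P28 call with any but the library labelled control 3. Tgfbr3 passed with all libraries at both ages. With 1 library left out, its P24 call held only when that library was control 3. Its P28 call held only when that was control 2 or the library labelled control 3. Rgma was lost without P24 control 1, dM1/2 2 or dM1/2 3, and Acvr1 without P28 control 1, dM1/2 2 or dM1/2 3. Tgfbr3 itself was spread widely over the P28 controls, from 4376 to 13018 normalized reads.

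Among the Smads, which carry the signal to the nucleus, Smad1 fell by 0.50 at both ages (adjusted p = 0.0314 and 0.0324), and Smad5 by 0.36 at P28 (adjusted p = 0.0487; at P24 -0.30, adjusted p = 0.101). Smad9, the third Smad of BMP signaling, rose from 95.9 to 230 to 292 to 346 at P24 (1.09, adjusted p = 0.033) and from 63.4 to 98.7 to 235 to 362 at P28 (1.94, adjusted p = 0.00172). Each of these calls but that of Smad9 at P28 held in only 1 of the 6 fits that left out 1 library: Smad1 without P24 control 1 or the library labelled P28 control 3, Smad5 without P28 control 2 and Smad9 without P24 control 3.

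Known targets of BMP signaling went in both directions. The Id genes, direct targets that encode inhibitors of basic helix-loop-helix factors, gave log2 fold changes at P24 of -0.10 for Id1, 0.41 for Id2 and 0.00 for Id3, with adjusted p-values of 0.823, 0.213 and 0.996. At P28 they were 0.87, 0.56 and -0.55, with 0.108, 0.104 and 0.0757. Id4 fell at P24 (-1.10, adjusted p = 0.0166), a call lost without P24 control 2, dM1/2 1 or dM1/2 2. The inhibitory Smad6 fell at P24 from 903 to 1080 to 608 to 687 normalized reads (-0.62, adjusted p = 0.00944) and did not pass at P28 (-0.45, adjusted p = 0.137), and Smad7 passed at neither age (0.18 and 0.19). The homeobox gene Msx2 rose at P24 (1.19, adjusted p = 0.0052), a call lost in a single fit over all 24 libraries (0.0651), and did not pass at P28 (1.28, adjusted p = 0.0857). At P28 the homeobox genes Dlx5 (3.93, adjusted p = 0.00103) and Msx1 (2.41, adjusted p = 0.00331) and the osteogenic factor Runx2 (0.93, adjusted p = 0.00317) rose, and none of these 3 passed at P24 (adjusted p = 0.0518, 0.109 and 0.946). Of the 12 genes of this list, 1 rose (14.8% of all genes) and 2 fell (11.8%) at P24, and 3 rose (20.0%) at P28.

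Pathway genes were tested in the other comparisons as well. Between P24 and P28, Fstl3 rose and Crim1 and Vwc2 fell in controls, Msx1 and Tll1 rose and Crim1 fell in dM1/2, and none of 51 differed in this change between genotypes in limma. In the anagen minus telogen test, 20 of 53 passed, against 30.2% of all genes (16.1% higher and 14.1% lower): Chrd, Chrdl2, Gdf10, Smad9, Dlx5, Msx1 and Msx2 with a higher effect in anagen, and Acvrl1, Bmpr1a, Tgfbr3, Rgma, Fstl1, Fstl3, Twsg1, Sostdc1, Nbl1, Vwc2, Smad5, Smad6 and Smurf1 with a lower one. Over the 4 ages in controls 32 of 50 varied, against 49.0% of all genes. They included Gdf10, Gdf11 and Bmp8a, the antagonists and modulators Htra1, Chrd, Fst, Fstl1, Fstl3, Bmp1, Crim1, Twsg1, Tll1, Tll2, Sostdc1, Nbl1 and Vwc2, the receptors Acvr1, Acvr2b, Tgfbr3, Rgma and Rgmb, and Smad4, Smad9, Smad6, Smad7, Id1, Id2, Id4, Msx2, Atoh8 and Hey1. At P60 none of 49 passed.

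Genes with the most similar course were sought over the 8 group means of log2 normalized reads, among 11548 genes, as a description of 8 points that share libraries. For Grem1 they were Dnase2a (r = 0.99) and Trmt1 (r = 0.98), for Bmp6 Ercc6l2 and Pax1 (r = 0.99 each), and for Bmp7 Nmd3 and Bend7 (r = 0.97 each). Among the genes most like Nog was Rhbdd2 (r = 0.98), and among those most like Bmp2 was Avpr1a (r = 0.96). Bmp3 was most like Tmem199 and Slc30a9 (r = 0.99 each). Bmp4 was most like Adssl1 (r = 0.98) and Reep1 (r = 0.97), Bmp5 like Lsp1 and Rab3il1 (r = 0.99 each), and Bambi like Pcdhb8 (r = 0.99) and Ywhaq (r = 0.98). None of the 9 was among the genes most like another of them.

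Per exon length, Bmp4 was the highest of the 9 genes in all 8 groups, from 793 ± 374 (SD, n = 3) normalized reads per exon kilobase in the P60 mutants to 3591 ± 451 in the P20 mutants. Which gene came next depended on stage and genotype: Bmp7 in telogen controls and in the mutants at P20, P24 and P28, Bmp6 in the anagen controls, and Grem1 in the P60 mutants. In the P24 controls Grem1 was at 49.3 ± 16.5 per exon kilobase and Nog at 203 ± 46.4. The P24 mutants had Nog above Grem1 too (632 ± 146 and 329 ± 160). In the P28 mutants Grem1 was the higher, at 768 ± 58.0 against 377 ± 44.1 for Nog. Grem1 was also the higher in telogen in both genotypes. In the P20 controls it was at 207 ± 27.5 and Nog at 65.7 ± 20.0. In the P60 controls they were at 520 ± 67.9 and 83.5 ± 22.2. In the P28 controls Grem1 was at 88.4 ± 120 per exon kilobase and Nog at 521 ± 129, and Nog was the higher in each of the 3 libraries.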

How the data were processed

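The authors trimmed 50-base single-end reads from ribosome-depleted, directional libraries with Trimmomatic, aligned them with TopHat to mm10, counted them per Ensembl gene (GRCm38.p4) with HTSeq and normalized them with DESeq2. The deposited signal gives, per gene, reads scaled by DESeq2 size factors over 24 libraries together, and whole reads were recovered for 100% of values (within 1e-06). Deposited fold changes and p-values were not used. The main test was limma 3.58.1 (trend, two-sided) on log2(normalized reads + 1), for genes with a mean of at least 10, with Benjamini-Hochberg adjustment over all genes and a threshold of 0.05, checked on simulated data. Alternatives were edgeR 4.0.16 (TMM or DESeq2 size factors) and DESeq2 1.42.0 on recovered reads, a pseudocount of 10, other filters and thresholds, a replicate block, a single fit and each library left out. P60 minus P20 was added after seeing the data. Positions and exon lengths are from GENCODE vM21. The genes and lists were chosen with earlier results of these data known. Named pathway genes are those past the threshold (up to 6 per list and age at P24 and P28) and 14 fixed ones, and for likeness the 2 genes with the highest r, with a mean of at least 50 and without predicted gene models. Results of some genes that these rules name are not reported here. Replicates are separate mice per the labels.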

Additional observations from a re-analysis of the deposited data

Results flagged for a closer look

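A test of the difference between effects singled out 7 results. For Nog the change from P24 to P28 differed between genotypes by -2.08 on the log2 scale, with adjusted p = 0.0298 in limma. The effect of the mutation in anagen minus that in telogen was 3.39 on the log2 scale for Grem1, 2.12 for Bmp7, 1.95 for Bmp2, 1.20 for Bmp4, 0.70 for Bmp3 and -1.98 for Bmp6, with limma adjusted p-values of 0.000466, 9.83e-06, 0.000323, 0.0032, 0.0475 and 0.00151. Anagen libraries came from males and P20 libraries from females, and the anagen libraries were deeper. The part of sex and depth in these differences was not tested. For Bmp4, the telogen mean joins effects of 0.51 at P20 and -1.39 at P60, against 0.54 at P24.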

How the results depend on the processing

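Groups had 3 libraries each, so that 1 library could decide a call, and depth in telogen was at most 13369732 reads against 35469841 or more in anagen. At an adjusted p under 0.01, the count of the 9 genes fell to 2 at P28 and 0 for both the mutant P24 to P28 change and its difference between genotypes, and pathway genes to 0 at P20, 10 at P24 and 11 at P28. Over all genes, 4 of 13845 were under 0.01 at P20 and 1565 of 14028 at P24. With a log2 change of 1 or more in size, pathway genes numbered 11 at P24 (1779 of 14028 over all genes) and 10 at P28. The counts over all genes at these thresholds are not given here for P28 and the P24 to P28 changes. The drops there therefore do not single out the genes listed. A single fit over 24 libraries gave 3 of the 9 genes for the control P24 to P28 change (9.22% of all genes) and 0 pathway genes at P20. DESeq2 gave 2 of the 9 at P20 (4.82% of all genes), 3 and 5 for the control and mutant P24 to P28 changes (10.7% and 8.03%) and 3 for P60 minus P20 (1.2%), and 7 pathway genes at P20 and 1 at P60. The cause was not tested.

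Replicate numbers did not pair the samples: correlations of same-numbered libraries ran from -0.401 to 0.344, although at P20 each library correlated best with its own number. With a replicate block, 1 of the 9 genes passed at P20 (3.17% of all genes), 4 for the mutant P24 to P28 change (3.21%), 0 for its difference between genotypes (0 of all genes) and 2 for P60 minus P20 (0.378%), with 5 pathway genes at P20.

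With each library left out, the count of the 9 genes was 0 to 2 at P20, 5 to 8 at P24, 2 to 6 at P28, 0 to 3 for the mutant P24 to P28 change, 0 to 2 for its difference between genotypes, 5 to 6 for anagen minus telogen and 0 to 1 for P60 minus P20. Pathway genes numbered 0 to 10 at P20, 10 to 19 at P24 and 11 to 25 at P28. Counts over all genes moved as well. At P20 they went from 0 of 13825 without dM1/2 3 to 1530 of 13831 without control 1. The other shares over all genes are not given here, so that these counts do not single out the genes listed.

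Signs turned only for values that did not pass. In edgeR with TMM, edgeR with DESeq2 size factors and DESeq2, Id3 at P24 was 0.0067, 0.013 and 0.013, Grem1 from P24 to P28 in controls 0.84, 0.88 and 0.89, Bmp5 in the difference of changes -0.019, -0.0058 and -0.011, and Bmp5 in anagen minus telogen -0.10, -0.13 and -0.13. Leaving out single libraries gave these log2 ranges. At P20 they were -0.25 to 0.21 for Bmp2, -0.25 to 0.010 for Bmp5 and -0.33 to 0.10 for Grem1. At P24 they were -0.24 to 0.15 for Bambi, -0.071 to 0.16 for Bmpr2, -0.34 to 0.078 for Id1 and -0.21 to 0.20 for Id3. At P28 they were -0.40 to 1.12 for Bmp5, -0.26 to 0.49 for Bambi and -0.15 to 0.48 for Fst, and at P60 -0.34 to 0.23 for Bmp6 and -0.02 to 0.38 for Grem1. From P24 to P28 in controls they were -0.15 to 1.37 for Bmp5 and -1.31 to 0.64 for Grem1. In the difference of changes they were -0.064 to 0.51 for Bmp2, -0.73 to 0.80 for Bmp5, -0.19 to 0.13 for Bmp7 and -0.25 to 0.51 for Bambi. For Bmp5 in anagen minus telogen the range was -0.32 to 0.45, and for Bmp6 in P60 minus P20 -0.15 to 0.42.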
